A study of Mus musculus with 6 samples.

Results

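Collagen chain genes are the genes that encode the polypeptide chains of the collagens. They were taken here as every gene of the deposited table whose symbol has the form of a collagen chain, from Col1a1 to Col28a1, which gave 43 of the 24623 genes tested. Of these 43 chains, 11 form fibrils, 6 are the collagen IV chains of basement membranes and 26 belong to other collagens. The symbols alone decided which genes belong, although earlier results of these data were known when the members were chosen. The groups were L4/5 dorsal root ganglia (DRGs) of mice given LBP (100 mg/kg) by mouth for 13 days and L4/5 DRGs of mice given PBS, the vehicle, with 3 arrays in each group. LBP is a polysaccharide extract of wolfberry (Lycium barbarum). All animals were adult male wild-type C57BL/6 mice (C57BL/6J in the methods) of 8 to 12 weeks, and the sources read here mention no nerve injury before these arrays. Control samples carry PBS in their titles and treatment labels, which were followed here, while the protocol text deposited with all 6 samples speaks of LBP only. The arrays were of the Affymetrix Mouse Gene 2.0 ST design, in which many short probes read each gene, and the values are log2 intensities normalized by the authors. The methods describe RNA by group, from 3 groups with 3 mice in each, which reads as pooled animals per array without saying so outright, and p-values measure the spread between these arrays. Median log2 intensity was 6.45 to 6.46 on every array, and any 2 arrays correlated across genes at 0.990 to 0.994. The 10 sensory neuron markers examined (such as Prph, Avil and Scn10a) had mean log2 intensities of 9.22 to 12.34, above the upper quartile of each array (8.02 to 8.04).

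Collagens are matrix proteins in which chains wind around each other into a triple helix. Fibrillar collagens such as I, III and V pack into the fibrils that give connective tissue its tensile strength. Collagen IV forms the sheet-like network of basement membranes, which surround Schwann cells, satellite glia and blood vessels in a ganglion. Collagen VI makes beaded filaments near cells, and the remaining collagens decorate fibrils, form short-chain networks, span the cell membrane or anchor epithelia. In peripheral nerve and ganglia, fibroblasts and Schwann cells are known sources of these chains.

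No collagen chain gene passed the test over all genes. At an adjusted p under 0.05 from limma, which fits a linear model to each gene and borrows information on its spread from the others, 0 of 43 chains were called, and over all genes tested the share was 0.00812%. The lowest adjusted p of any chain was 0.999. Before adjustment, Col3a1 and Col8a1 were lower and Col6a6 was higher in LBP-treated DRGs at a p under 0.05. Col3a1 encodes the chain of collagen III, a fibril of extensible tissue, Col8a1 a chain of a short network collagen known from vessels and the cornea, and Col6a6 a chain of collagen VI. The 2 chains that were lower at that threshold are 4.65% of the 43, against 2.65% of all genes. The 1 higher chain is 2.33% of the 43, against 2.07% of all genes, and in either direction 3 chains (6.98%) stand against 4.72% of all genes. At the stricter p under 0.005 that the study used for its signature there were 0 chains, with 0.483% of all genes. These shares of chains lie near those of all genes and rest on 1 to 3 genes. The count of chains lower at p under 0.05 was 0 without LBP replicate 1 and 7 without LBP replicate 2, where Col14a1, Col1a1, Col23a1, Col25a1, Col3a1, Col4a1 and Col4a2 made it up. The count of chains higher was 2 without LBP replicate 1 (Col24a1 and Col6a6) and 0 without LBP replicate 3 or without PBS replicate 3.

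In 4 of the 43 chains, or 9.30%, no LBP value fell within the range of the PBS values or the reverse, against 9.63% of all genes. Col3a1, Col4a5 and Col6a4 had all LBP values under all PBS values (6.98% of the chains, against 5.28% of all genes), and Col6a6 had all of them above (2.33%, against 4.35%). Most chains had a negative mean difference. In 32 of 43 chains (74.4%) the LBP mean was under the PBS mean, while this held for 50.3% of all genes. Chains of one tissue vary together and are not independent of each other, and this count of 32 was 23 without LBP replicate 1 and 22 without LBP replicate 1 and PBS replicate 2 together. The log2 fold changes of the chains ran between -0.43 (Col3a1) and 0.30 (Col6a6), with a median of -0.09, and their 95% intervals lay between -0.80 and 0.56. The median log2 fold change was -0.13 in the 11 fibrillar chains, -0.17 in the 6 basement membrane chains and -0.04 in the other 26, against -0.0011 over all genes. The fibrillar median was -0.04 without PBS replicate 2, and that of the other chains was 0.02 without LBP replicate 1.

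**Figure D1:**
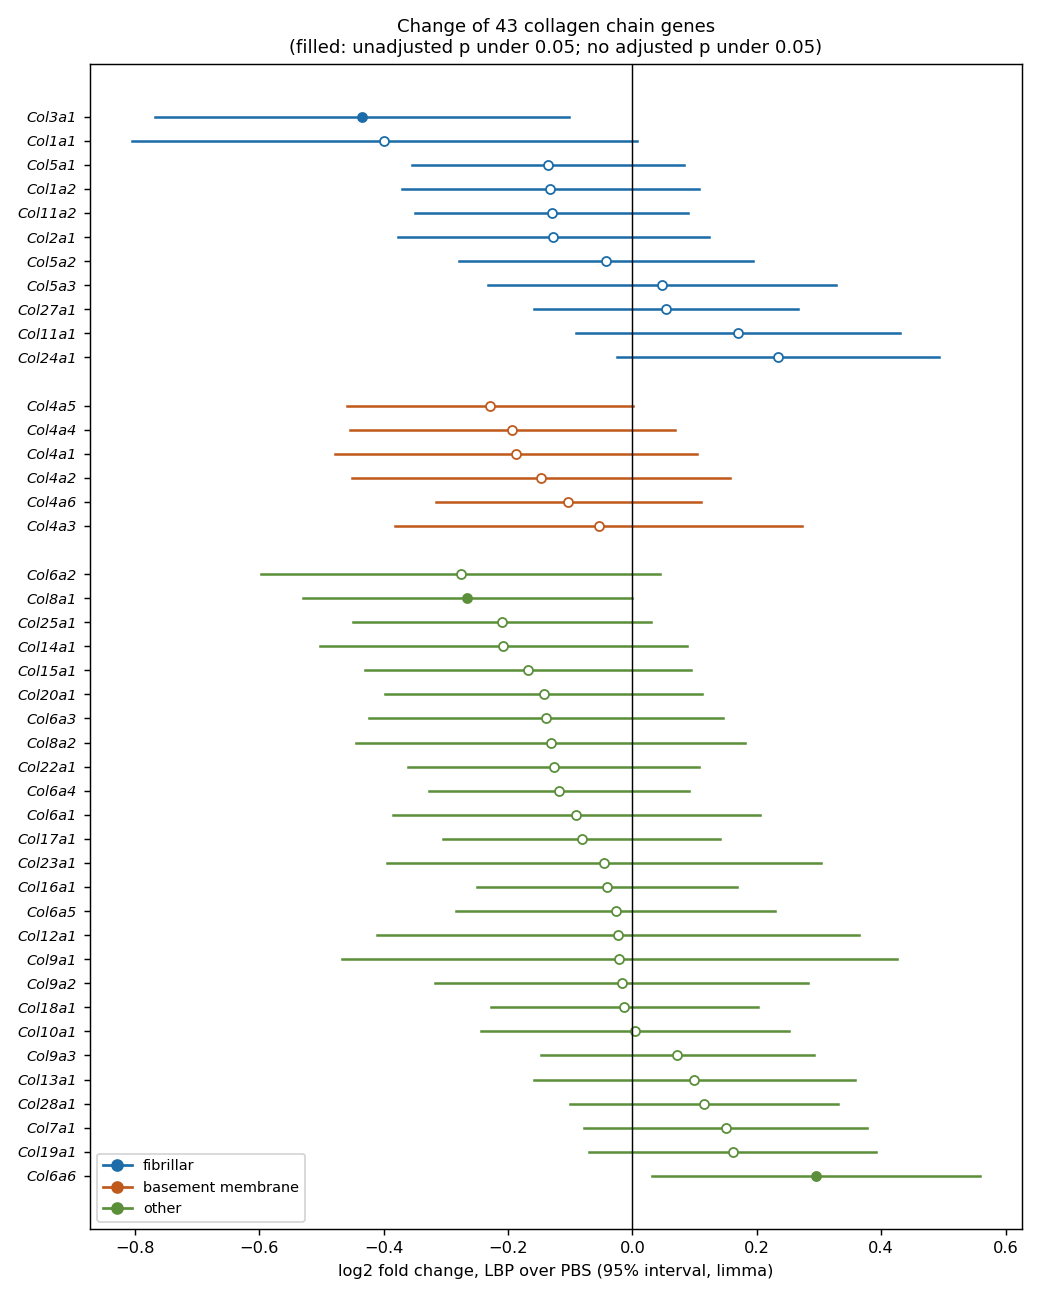
Log2 fold change (LBP over PBS) of each of the 43 collagen chain genes, with its 95% interval from limma, ordered within the fibrillar, basement membrane and other chains. Filled points mark the 3 chains with an unadjusted p under 0.05 (Col3a1, Col8a1 and Col6a6), and the intervals lie between -0.80 and 0.56.

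Among the fibrillar collagens, Col3a1 and Col1a1 had the most negative log2 fold changes. Log2 intensity of Col3a1 was 8.09, 8.52 and 8.56 in LBP-treated DRGs and 8.65, 9.04 and 8.79 in PBS-treated DRGs. Every LBP value of Col3a1 lay under every PBS value, with the lowest on LBP replicate 1 and the highest on PBS replicate 2. LBP-treated DRGs averaged 8.39 ± 0.26 and PBS-treated DRGs 8.83 ± 0.20 (SD, n = 3 each). The log2 fold change was -0.43 with a standard error of 0.15 and a 95% interval of -0.77 to -0.10. This is 0.740 times the PBS level. Its p from limma was 0.0156 before adjustment (adjusted p = 0.999), and the exact permutation test gave a two-sided p of 0.1, beyond which groups of 3 cannot go. When LBP replicate 1 was left out, the limma p was 0.0658, and when PBS replicate 2 was left out it was 0.0652. Col3a1 is therefore past the unadjusted threshold only with both of these arrays in the fit, and its log2 fold change was -0.18 when both were left out.

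Col1a1 and Col1a2 encode the chains of collagen I, the main fibril of skin, bone and the nerve sheath, in which both chains combine in each molecule. Col1a1 was at 8.95, 9.66 and 9.50 in LBP-treated DRGs and at 9.52, 9.94 and 9.85 in PBS-treated DRGs. The groups overlapped, since LBP replicate 2 lay above PBS replicate 1. The log2 fold change of Col1a1 was -0.40 (standard error 0.18, 95% interval -0.80 to 0.01). Its limma p was 0.0534, and the exact permutation p 0.2. Leaving out LBP replicate 2 gave a limma p of 0.0198, and leaving out PBS replicate 1 gave 0.0214, so that single arrays decide on which side of 0.05 it falls. Without LBP replicate 1 the log2 fold change was -0.19 and the limma p 0.229, and with PBS replicate 2 left out as well the log2 fold change was -0.10. Col1a2 was at 7.77, 8.08 and 7.89 in LBP-treated DRGs and at 8.01, 8.03 and 8.09 in PBS-treated DRGs (log2 fold change -0.13, standard error 0.11). Relative to its own PBS mean, Col1a1 stood at -0.82 on LBP replicate 1, and Col1a2 at -0.28. Both chains of collagen I were thus lowest on the same array, with the smaller difference in Col1a2. Between groups, the interval of Col1a2 (-0.37 to 0.11) overlaps with that of Col1a1, and the difference between the 2 chains was not tested.

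The start regions of Col3a1 and Col1a2 are shown because both genes encode fibril chains whose values on the 6 arrays differed in size. RefSeq gives 300 bases for each on GRCm38.p6, of which 250 lie before the start site and 50 from it on, and such windows were at hand for 35 of the 43 chains. Capitals mark matches, on either strand, to the letters TATAAA of the TATA box, the letters CCAAT of the CCAAT box and the letters GGGCGG of the GC box. No match in the printed windows overlaps another.
Col3a1 (chr1:45311288-45311587, plus strand): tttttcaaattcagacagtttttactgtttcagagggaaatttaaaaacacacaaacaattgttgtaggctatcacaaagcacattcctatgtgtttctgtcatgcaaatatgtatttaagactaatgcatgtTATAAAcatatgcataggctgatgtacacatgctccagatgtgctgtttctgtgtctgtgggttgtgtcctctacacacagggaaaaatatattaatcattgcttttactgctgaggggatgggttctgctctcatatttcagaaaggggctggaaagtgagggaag
Col1a2 (chr6:4505368-4505667, plus strand): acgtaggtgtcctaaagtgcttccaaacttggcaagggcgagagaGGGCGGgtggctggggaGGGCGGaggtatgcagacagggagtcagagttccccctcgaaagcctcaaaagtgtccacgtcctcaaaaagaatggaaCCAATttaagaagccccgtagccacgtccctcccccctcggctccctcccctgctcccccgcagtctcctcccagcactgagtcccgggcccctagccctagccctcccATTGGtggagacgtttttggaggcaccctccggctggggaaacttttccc
The Col3a1 window held 1 TATAAA, 117 bases before the start site, and none of the other letters searched. The Col1a2 window held 2 GGGCGG matches and 2 CCAAT matches, one of them 109 bases before the start site and the other, on the reverse strand, at the start site itself. The share of G and C was 37.7% for Col3a1 and 61.0% for Col1a2. Its median was 52.7% over all 32851 windows and 59.8% over the windows of the chains. TATAAA was found in 13.2% of the 38 windows of the chains, some of which have more than 1 window, and in 13.6% of all windows. For CCAAT these shares were 34.2% and 37.4%, and for GGGCGG 60.5% and 35.7%. These are matches of letters, and no binding was measured.

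**Figure D2:**
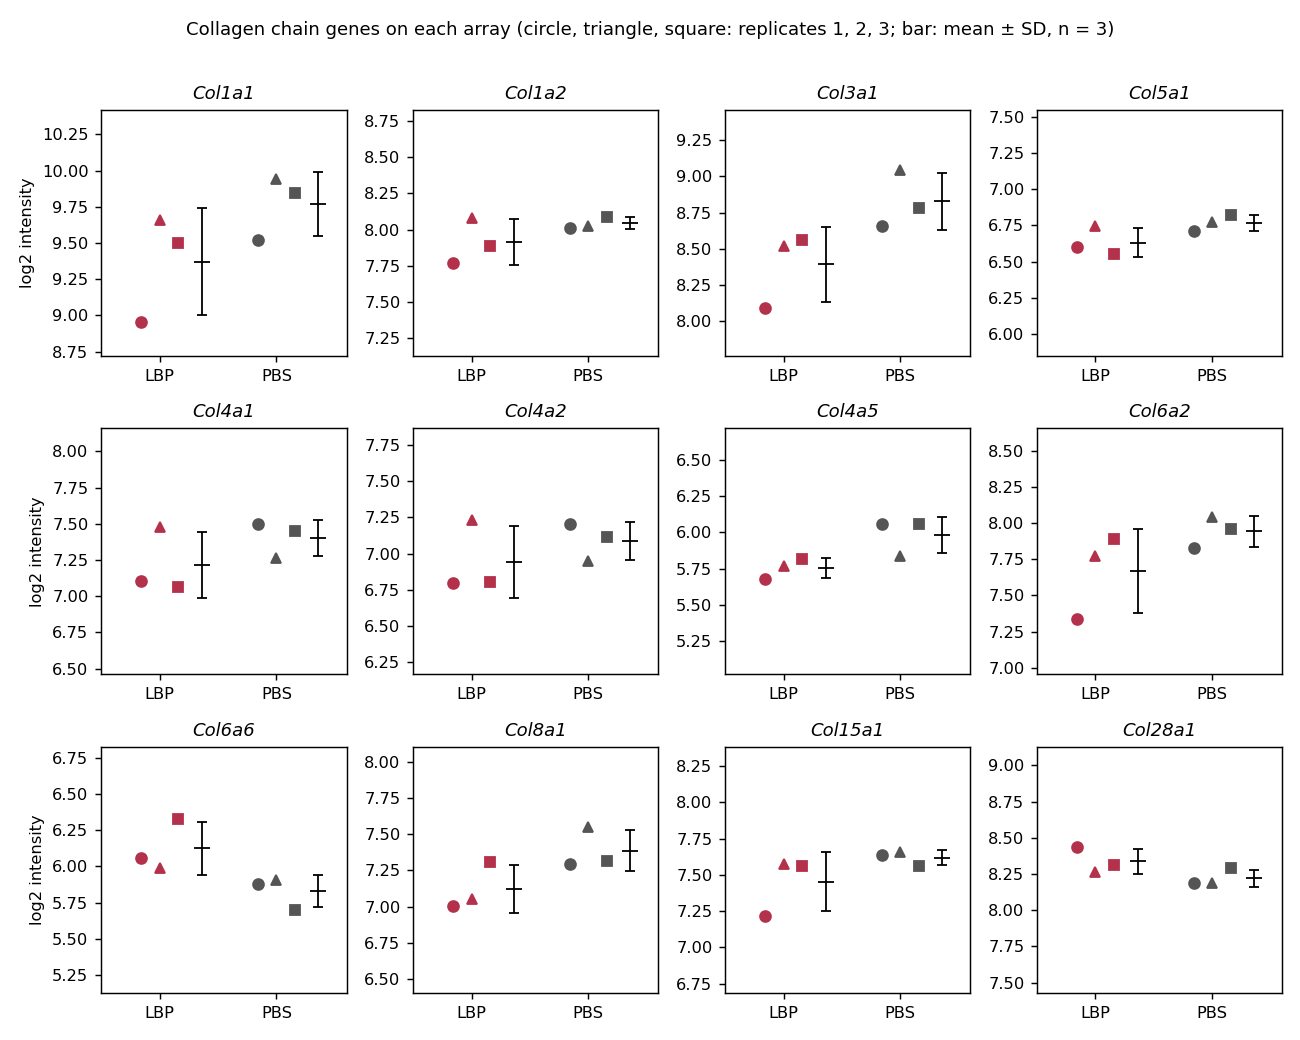
Log2 intensity (y axis) of 12 collagen chain genes on the 3 LBP and 3 PBS arrays, with circle, triangle and square for replicates 1, 2 and 3 and bars for the mean ± SD. LBP replicate 1 is the lowest point for Col1a1, Col1a2, Col3a1, Col4a2, Col4a5, Col6a2, Col8a1 and Col15a1, and the 3 LBP points lie above the 3 PBS points for Col6a6.

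Col5a1 and Col5a2 encode chains of collagen V, which is built into collagen I fibrils and limits their width. Col5a1 was at 6.60, 6.75 and 6.55 in LBP-treated DRGs and at 6.71, 6.77 and 6.82 in PBS-treated DRGs, a log2 fold change of -0.14 (95% interval -0.35 to 0.08). Col5a2 was at 7.09, 7.17 and 7.35 in LBP-treated DRGs and at 7.22, 7.35 and 7.17 in PBS-treated DRGs, with -0.04 (-0.28 to 0.19). Neither differed beyond the spread between arrays. Col5a2 is the tail-to-tail neighbour of Col3a1 on chromosome 1, and its largest distance from its own PBS mean was -0.15, on LBP replicate 1, where Col3a1 was at -0.73.

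Col2a1, the main fibril chain of cartilage, was at 6.31, 6.43 and 6.38 in LBP-treated DRGs and at 6.49, 6.68 and 6.33 in PBS-treated DRGs (log2 fold change -0.13, limma p = 0.283, exact permutation p = 0.3). The groups overlapped through PBS replicate 3. Of the remaining fibrillar chains, Col11a2 had a log2 fold change of -0.13, Col5a3 and Col27a1 of 0.05 each, Col11a1 of 0.17 and Col24a1 of 0.23. Col24a1 encodes a minor fibril chain known from bone and cornea. It ran between 7.20 and 7.59 in LBP-treated DRGs and between 7.13 and 7.20 in PBS-treated DRGs, with a limma p of 0.0710. The fibrillar class therefore held both the most negative value of the 43 chains and 4 chains with positive ones.

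All 6 chains of collagen IV had negative log2 fold changes, and 0 of 6 had a p under 0.05. Collagen IV molecules join Col4a1 with Col4a2 chains in nearly all basement membranes, and Col4a3, Col4a4 and Col4a5 in a few specialised ones such as that of the kidney glomerulus. Col4a1 was at 7.11, 7.48 and 7.06 in LBP-treated DRGs and at 7.50, 7.26 and 7.45 in PBS-treated DRGs. Its partner Col4a2 was at 6.80, 7.23 and 6.80 in LBP-treated DRGs and at 7.21, 6.95 and 7.11 in PBS-treated DRGs. For both genes LBP replicates 1 and 3 were the lowest arrays of all 6, LBP replicate 2 lay within the PBS values or above them, and PBS replicate 2 was the lowest of the PBS arrays. The log2 fold change was -0.19 for Col4a1 (95% interval -0.48 to 0.10) and -0.15 for Col4a2 (-0.45 to 0.16), neither beyond the spread between arrays. Without LBP replicate 2 they were -0.32 and -0.29, and the limma p was 0.0198 for Col4a1 and 0.0302 for Col4a2. Without LBP replicate 3 they were -0.11 and -0.08, and without LBP replicate 1 that of Col4a2 was -0.07.

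Relative to their own PBS means, Col4a1 and Col4a2 stood at -0.30 and -0.29 on LBP replicate 1, at 0.08 and 0.14 on LBP replicate 2, and at -0.34 and -0.29 on LBP replicate 3. On the PBS arrays they stood at 0.10 and 0.12 on replicate 1, at -0.14 and -0.14 on replicate 2 and at 0.05 and 0.02 on replicate 3. The 2 genes thus kept within 0.1 of each other on every array. This closeness was not particular to them. Col6a1 and Col6a3, on chromosomes 10 and 1, also kept within 0.1 of each other on every array. They were furthest apart on LBP replicate 2, at -0.027 and -0.123. Col4a1 and Col4a2 lie head to head on chromosome 8. They are known to be read in opposite directions from a shared start region, which is shown for that reason. Whether that region bears on their closeness was not tested. RefSeq's windows of the 2 genes on GRCm38.p6 overlap by 78 bases (chr8:11312777-11312854), which are in capitals and appear in each window as the reverse complement of the other.
Col4a1 (chr8:11312777-11313076, minus strand): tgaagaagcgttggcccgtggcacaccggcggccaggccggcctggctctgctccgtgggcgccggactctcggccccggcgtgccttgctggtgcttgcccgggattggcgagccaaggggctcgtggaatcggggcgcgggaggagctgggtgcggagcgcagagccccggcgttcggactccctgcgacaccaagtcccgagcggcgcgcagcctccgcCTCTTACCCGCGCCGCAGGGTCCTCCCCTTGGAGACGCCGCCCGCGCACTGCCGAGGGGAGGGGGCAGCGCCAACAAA
Col4a2 (chr8:11312555-11312854, plus strand): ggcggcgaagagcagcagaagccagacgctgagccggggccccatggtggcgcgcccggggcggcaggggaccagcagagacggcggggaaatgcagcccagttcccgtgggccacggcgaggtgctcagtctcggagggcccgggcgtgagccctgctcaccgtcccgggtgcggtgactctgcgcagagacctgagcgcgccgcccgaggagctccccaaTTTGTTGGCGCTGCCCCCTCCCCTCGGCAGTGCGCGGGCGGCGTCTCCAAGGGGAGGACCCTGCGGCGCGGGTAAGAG
The share of G and C was 74.0% in the Col4a1 window and 73.7% in that of Col4a2. The other collagen IV genes are also arranged as head-to-head pairs in the annotation, Col4a4 with Col4a3 on chromosome 1 and Col4a6 with Col4a5 on chromosome X.

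Col4a5 was at 5.68, 5.77 and 5.82 in LBP-treated DRGs and at 6.05, 5.84 and 6.06 in PBS-treated DRGs. The groups did not overlap, by a gap between LBP replicate 3 and PBS replicate 2 that was small beside the spread of the PBS arrays. Its log2 fold change was -0.23 (standard error 0.10, 95% interval -0.46 to 0.0015, p = 0.0513 from limma, exact permutation p = 0.1). Without PBS replicate 2 the limma p was 0.0240, and without LBP replicate 1 it was 0.143. Its neighbour Col4a6 was at 5.52, 5.49 and 5.51 in LBP-treated DRGs and at 5.63, 5.69 and 5.50 in PBS-treated DRGs, with a log2 fold change of -0.10 (-0.32 to 0.11). Col4a4 was at 5.72, 5.73 and 5.74 in LBP-treated DRGs and at 6.11, 5.95 and 5.70 in PBS-treated DRGs, with one of -0.19 (-0.45 to 0.07). PBS replicate 3 was the lowest array for Col4a4, and without it the p was 0.0300. Without PBS replicate 1 the log2 fold change was -0.10 and the limma p 0.440. Col4a3, which pairs with Col4a4, was at 5.58, 6.05 and 5.91 in LBP-treated DRGs and at 5.67, 6.08 and 5.95 in PBS-treated DRGs. Its log2 fold change was -0.05 (-0.38 to 0.27), and it was 0.08 without LBP replicate 1. Unlike Col4a1 and Col4a2, the values of Col4a3 and Col4a4 did not keep together on single arrays, with Col4a4 at -0.19 and Col4a3 at 0.15 relative to their PBS means on LBP replicate 2.

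**Figure D3:**
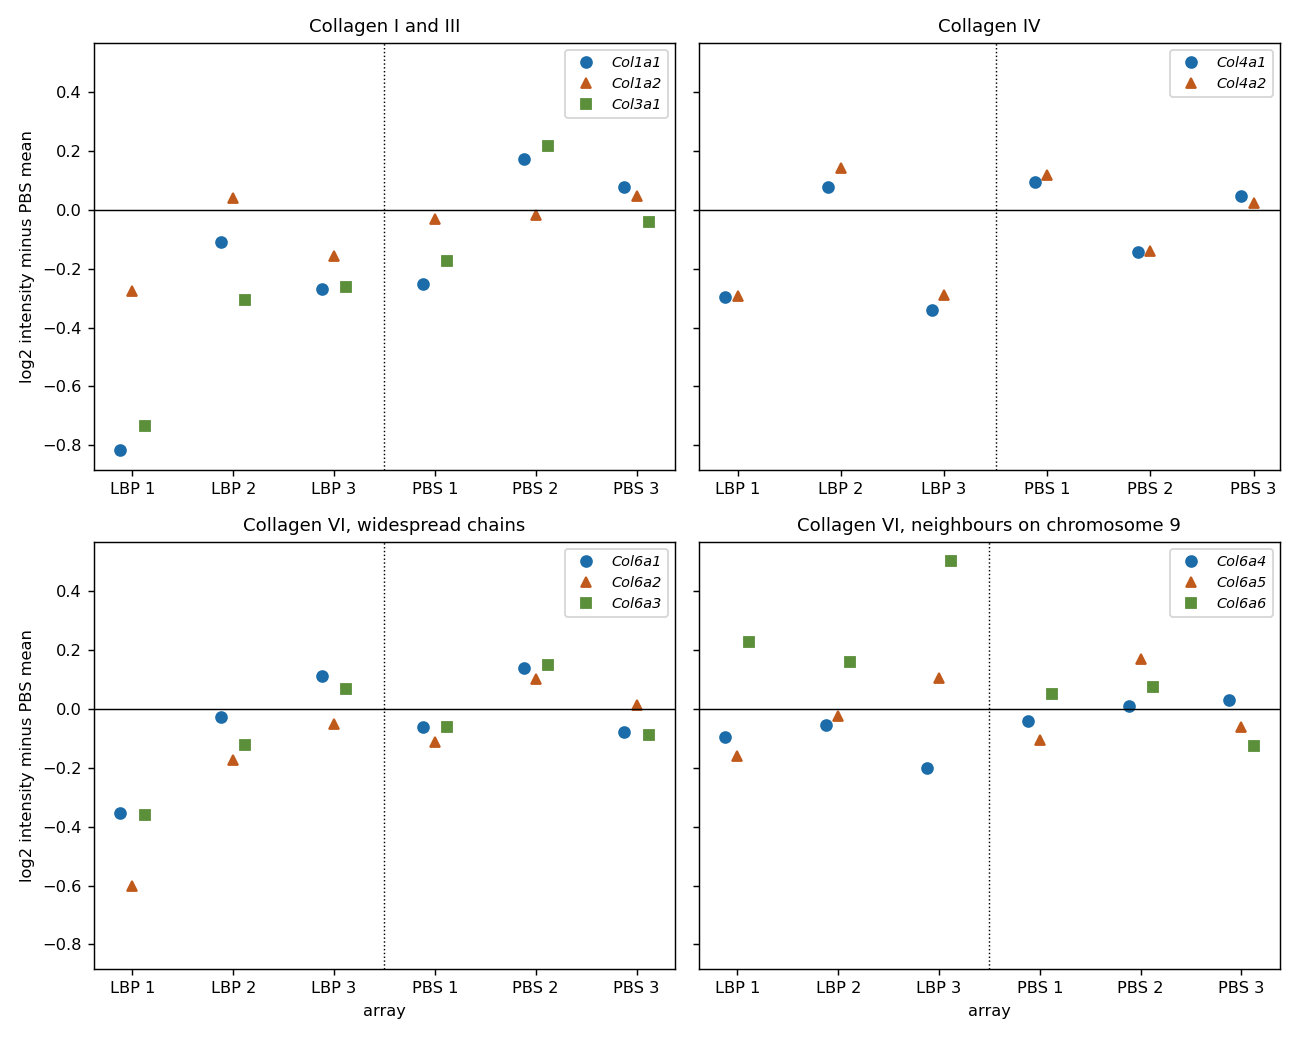
Difference of log2 intensity from each gene's PBS mean (y axis) on the 3 LBP and 3 PBS arrays for collagen I and III, collagen IV and the 2 sets of collagen VI chains. Col4a1 and Col4a2 lie within 0.1 of each other on every array, and so do Col6a1 and Col6a3. Col1a1 and Col3a1 reach -0.82 and -0.73 on LBP replicate 1, and Col6a6 departs from its neighbours Col6a4 and Col6a5 on the LBP arrays.

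Collagen VI links cells to the surrounding matrix in nerve, muscle and skin. Its widespread chains Col6a1, Col6a2 and Col6a3 combine in 1 molecule. Col6a2 was at 7.34, 7.77 and 7.89 in LBP-treated DRGs and at 7.83, 8.04 and 7.96 in PBS-treated DRGs, with LBP replicate 3 above PBS replicate 1. Its log2 fold change was -0.28 (standard error 0.14, 95% interval -0.60 to 0.05, limma p = 0.0844, exact permutation p = 0.2), and without LBP replicate 3 the p was 0.0265. Without LBP replicate 1 the log2 fold change of Col6a2 was -0.11 and the limma p 0.364. Col6a1 was at 6.93, 7.25 and 7.39 in LBP-treated DRGs and at 7.22, 7.42 and 7.20 in PBS-treated DRGs. Col6a3 was at 6.91, 7.15 and 7.34 in LBP-treated DRGs and at 7.21, 7.42 and 7.19 in PBS-treated DRGs. The log2 fold changes were -0.09 for Col6a1 and -0.14 for Col6a3, and that of Col6a1 was 0.04 without LBP replicate 1. All 3 chains were lowest on LBP replicate 1 and highest on PBS replicate 2.

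Col6a4, Col6a5 and Col6a6 lie side by side on chromosome 9 and encode chains that can stand in for Col6a3. Col6a6 was at 6.06, 5.99 and 6.33 in LBP-treated DRGs and at 5.88, 5.90 and 5.70 in PBS-treated DRGs. Every LBP value was above every PBS value. LBP-treated DRGs averaged 6.13 ± 0.18 and PBS-treated DRGs 5.83 ± 0.11 (SD, n = 3 each), and the log2 fold change was 0.30 (standard error 0.12, 95% interval 0.03 to 0.56, 1.23 times the PBS level). Its limma p was 0.0315 before adjustment, and its exact permutation p 0.1. Leaving out LBP replicate 3 gave a limma p of 0.124, and leaving out PBS replicate 3 gave 0.122. The neighbours did not share this difference of 0.30, with log2 fold changes of -0.03 for Col6a5 (-0.28 to 0.23) and -0.12 for Col6a4 (-0.33 to 0.09). The 3 LBP values of Col6a4 (5.20 to 5.34) lay under its PBS values (5.36 to 5.43), at a p of 0.237 from limma. The difference between the neighbours was not tested.

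Col6a6 and Col8a1 complete the chains with an unadjusted p under 0.05, and their start regions are shown beside that of Col3a1, with the same motifs in capitals.
Col6a6 (chr9:105828036-105828335, minus strand): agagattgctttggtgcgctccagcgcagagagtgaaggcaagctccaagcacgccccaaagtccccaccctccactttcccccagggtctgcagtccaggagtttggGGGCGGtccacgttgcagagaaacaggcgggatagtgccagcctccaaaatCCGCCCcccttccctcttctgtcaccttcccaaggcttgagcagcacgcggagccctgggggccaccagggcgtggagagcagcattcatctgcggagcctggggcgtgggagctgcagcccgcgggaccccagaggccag
Col8a1 (chr16:57754688-57754987, minus strand): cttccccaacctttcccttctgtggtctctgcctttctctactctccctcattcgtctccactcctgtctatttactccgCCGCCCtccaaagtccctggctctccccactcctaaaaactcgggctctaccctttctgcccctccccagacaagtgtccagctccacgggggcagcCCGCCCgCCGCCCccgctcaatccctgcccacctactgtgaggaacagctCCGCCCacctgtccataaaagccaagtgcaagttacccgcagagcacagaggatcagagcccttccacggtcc
Both windows were rich in G and C (65.0% for Col6a6 and 60.3% for Col8a1). The Col6a6 window held 2 matches to the GC box and that of Col8a1 held 4, the nearest to the start site lying 91 bases before it in Col6a6 and 23 bases before it in Col8a1. Neither held TATAAA or CCAAT.

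Col8a1 was at 7.00, 7.06 and 7.31 in LBP-treated DRGs and at 7.30, 7.55 and 7.32 in PBS-treated DRGs. LBP replicate 3 overlapped with the PBS arrays. The log2 fold change was -0.27 (standard error 0.12, 95% interval -0.53 to -0.00073, p = 0.0495 from limma, exact permutation p = 0.2), so that its p just met the threshold. This p was 0.156 and 0.118 when LBP replicate 1 or 2 was left out, and 0.182 and 0.0629 when PBS replicate 2 or 3 was. Its partner chain Col8a2 had a log2 fold change of -0.13, and Col10a1, the short-chain collagen of growth-plate cartilage, one of 0.0041.

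Col15a1 and Col18a1 encode the multiplexins, proteoglycan collagens of the basement membrane zone. Col15a1 was at 7.22, 7.58 and 7.56 in LBP-treated DRGs and at 7.64, 7.66 and 7.56 in PBS-treated DRGs, with LBP replicate 1 apart from the other arrays. Its log2 fold change was -0.17 (-0.43 to 0.09). Col18a1 was at 6.82, 6.94 and 6.89 in LBP-treated DRGs and at 6.82, 6.98 and 6.89 in PBS-treated DRGs, with -0.01 (-0.23 to 0.20), and its sign turned without either LBP replicate 1 or PBS replicate 2. Col28a1, which in mice is known from Schwann cells of peripheral nerve, was at 8.43, 8.26 and 8.31 in LBP-treated DRGs and at 8.19, 8.19 and 8.29 in PBS-treated DRGs. Its log2 fold change was 0.12 (-0.10 to 0.33), and LBP replicate 1 was its highest array rather than its lowest.

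The 9 fibril-associated chains, which sit on the surface of other fibrils, had log2 fold changes of -0.21 (Col14a1) to 0.16 (Col19a1), 7 of them negative. The widest spread within groups (SD) of all 43 chains was that of Col9a1 at 0.35, followed by Col1a1 at 0.31. Col9a1, a chain known from cartilage, ran between 4.78 and 5.65 in LBP-treated DRGs and between 5.15 and 5.52 in PBS-treated DRGs. Over all 43 chains the median spread was 0.143, against 0.137 over all genes. The 4 transmembrane chains ran between -0.21 (Col25a1, a chain found in neurons) and 0.10 (Col13a1), and Col7a1, the anchoring fibril of skin, had a log2 fold change of 0.15. None of these 14 chains had a p under 0.05. All 43 chains had mean log2 intensities above the lower quartile of genes (5.05), from 5.20 for Col10a1 to 9.57 for Col1a1, so that a filter on dim genes removed none of them.

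Many chains had their lowest value on the same LBP array and their highest on the same PBS array. LBP replicate 1 was the lowest of the 6 arrays in 22 of 43 chains (51.2%), against 15% of all genes. PBS replicate 2 was the highest in 21 of 43 (48.8%), against 15.7% of all genes, and both held for 15 chains (34.9%), against 3.74% of all genes. Those 15 were Col1a1, Col2a1, Col3a1, Col5a2, Col11a2, Col4a3, Col6a1, Col6a2, Col6a3, Col6a5, Col8a1, Col8a2, Col12a1, Col15a1 and Col16a1. Both arrays were singled out after their values were seen, so that these shares are given without a test, and chains that vary together are not independent. Relative to the PBS mean of each gene, the median fibrillar chain stood at -0.17, -0.02 and -0.09 on LBP replicates 1, 2 and 3 and at -0.03, 0.10 and -0.04 on PBS replicates 1, 2 and 3. The median basement membrane chain stood at -0.29, -0.02 and -0.18 on the LBP arrays and at 0.08, -0.06 and 0.03 on the PBS arrays. The basement membrane median was thus not highest on PBS replicate 2, although that array was the highest in 2 of the 6 chains, Col4a3 and Col4a6.

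**Figure D4:**
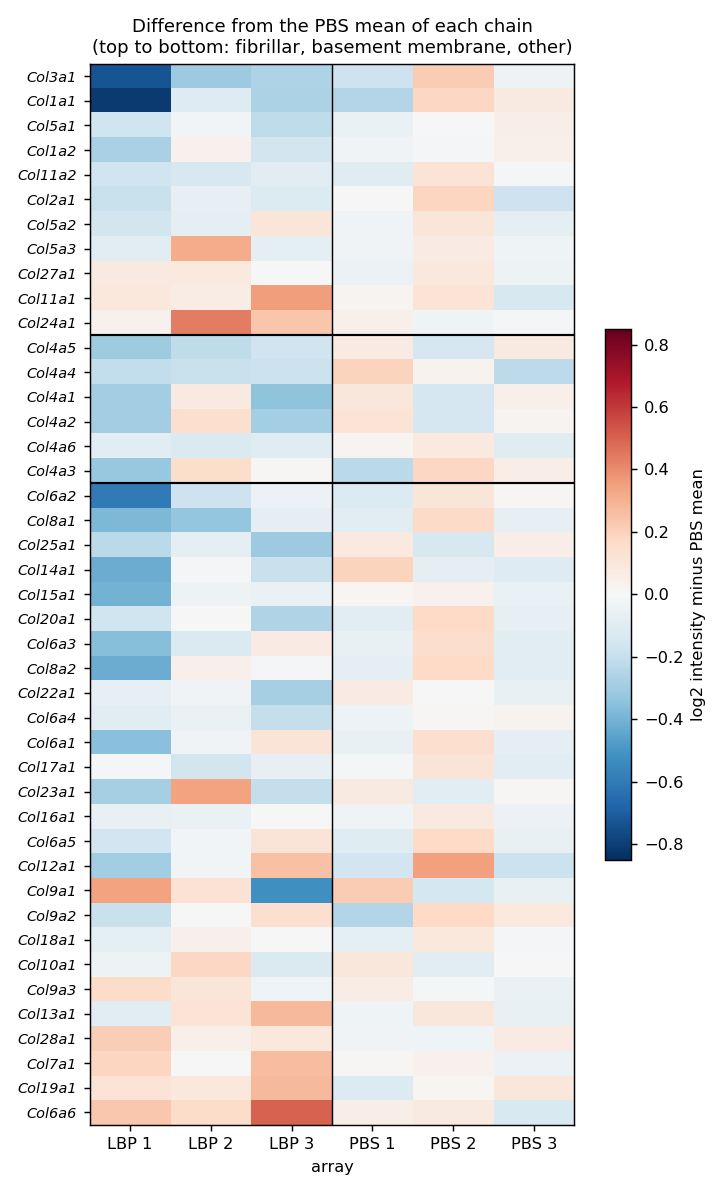
Difference of log2 intensity from each chain's PBS mean for 43 collagen chain genes (rows) on the 3 LBP and 3 PBS arrays (columns), with blue below and red above that mean. LBP replicate 1 is the lowest array in 22 chains and PBS replicate 2 the highest in 21.

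Markers of fibroblasts moved with the same arrays. The list held 12 markers without collagen chains (such as Pdgfra, Dpt and Mfap4), all of them measured and none under the lower quartile of genes. LBP replicate 1 was the lowest array in 8 of 12, against 15% of all genes. PBS replicate 2 was the highest in 8 of 12, against 15.7% of all genes. The median fibroblast marker stood at -0.53, -0.01 and -0.15 on the LBP arrays and at -0.16, 0.16 and -0.10 on the PBS arrays, relative to the PBS mean of each gene. The summed linear intensity of the list was 3321 to 7152 in LBP-treated DRGs and 5832 to 9152 in PBS-treated DRGs, so that the groups overlapped. A single bright gene, Ptgds, made up 34.5% to 58.8% of that sum on the LBP arrays and 51.9% to 63.0% on the PBS arrays. Without it the sums were 2177 to 2949 in LBP-treated DRGs and 2808 to 3389 in PBS-treated DRGs, and LBP replicate 1 and PBS replicate 2 were again the lowest and the highest. In whole ganglia, fewer cells of a type and less RNA per cell cannot be told apart, and the part of fibroblast content in the collagen values was not tested. Fibroblast markers had negative log2 fold changes in 11 of 12 genes with a median of -0.18. Mfap4 (-0.50) and Dpt (-0.40) had an unadjusted limma p under 0.05, and an adjusted limma p of 0.938 and 0.999. These 2 of 12 markers stand against 2.65% of all genes that were lower at that unadjusted p.

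Markers of other cell types were also uneven between arrays. Macrophage markers stood at -0.26 on LBP replicate 1 and at 0.16 on PBS replicate 2, their lowest and highest medians, and at -0.12 to 0.08 elsewhere. Central nervous system markers stood at a median of 1.13 on LBP replicate 2 and at -0.08 to 0.07 elsewhere, with 2 of the 8 under the lower quartile of genes. Schwann cell and myelin markers stood at -0.25 on LBP replicate 1, at 0.17 on LBP replicate 2 and at -0.09 to 0.02 elsewhere. LBP replicate 1 was the lowest array in 7 of these 10 markers, against 15% of all genes. Skeletal muscle markers stood at -1.14 on LBP replicate 2 and -1.03 on PBS replicate 2, and at -0.35 to 0.52 elsewhere. Satellite glia markers stood at 0.08 to 0.16 on the LBP arrays and at -0.05 to 0.06 on the PBS arrays. Of these 6 genes, 4 had positive and 2 negative log2 fold changes, with a median of 0.12. Cdh19 (0.49, limma p = 0.00636, exact permutation p = 0.1) and Kcnj10 (0.29, limma p = 0.0196, exact permutation p = 0.1) were higher in LBP-treated DRGs. Medians ran between -0.35 and 0.18 for neutrophil and bone marrow markers and between -0.25 and 0.19 for adipocyte markers. The medians of sensory neuron markers kept within -0.09 and 0.08, and those of endothelial and pericyte markers within -0.05 and 0.06. The medians of cartilage and bone markers, whose tissue is rich in Col2a1 and Col1a1, kept within -0.12 and 0.09, but single genes of that list did not. Of these 12 genes, 5 had positive and 7 negative log2 fold changes, with a median of -0.05. Chad, which encodes the cartilage protein chondroadherin, had the most negative one, at -0.89 (limma p = 0.00188, adjusted limma p = 0.87, exact permutation p = 0.1). All LBP values of Chad lay under all PBS values. Comp had the most positive one, at 0.29, with overlapping groups (exact permutation p = 0.2). The part of these tissues in the collagen values was not tested.

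**Figure D5:**
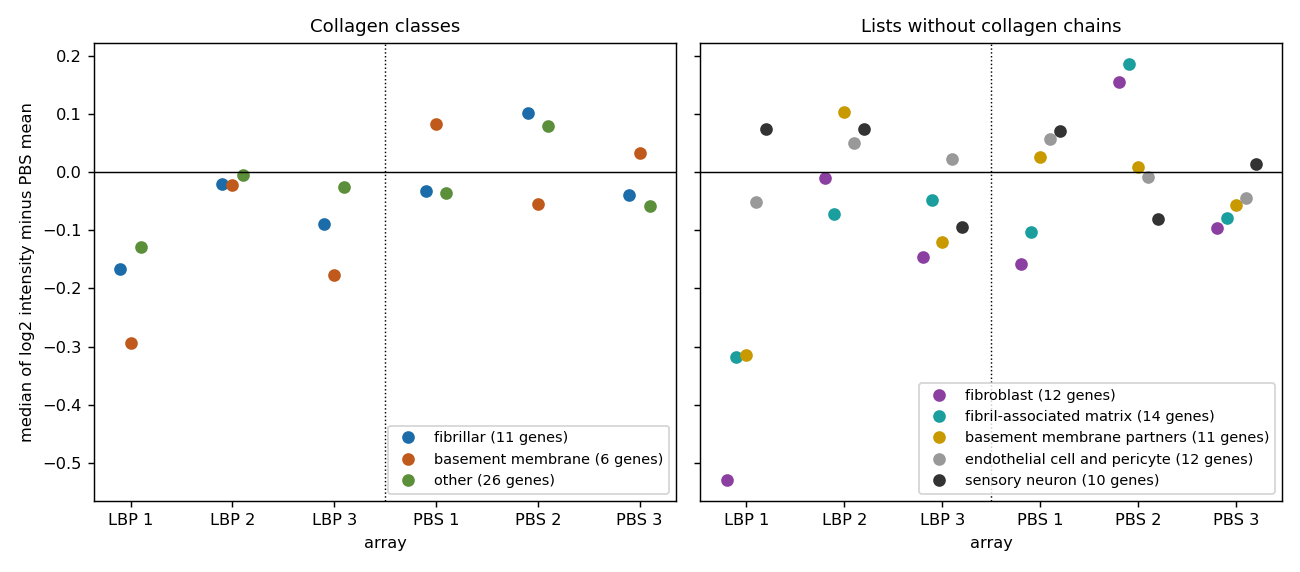
Median difference of log2 intensity from the PBS mean (y axis) on each of the 3 LBP and 3 PBS arrays, for the collagen classes (left) and for 5 lists without collagen chains (right). Fibroblast markers reach -0.53 and the fibrillar chains -0.17 on LBP replicate 1, and both have their highest median on PBS replicate 2 (0.16 and 0.10).

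Genes that make, process, bind and degrade collagen were set beside the chains. None passed at an adjusted p under 0.05 from limma, and those with an unadjusted p under 0.05 all had lower means in LBP-treated DRGs. Of 19 genes of collagen synthesis inside the cell, 14 had negative and 5 positive log2 fold changes, with a median of -0.11. Creb3l1 encodes a transcription factor known to drive collagen I synthesis in bone, and the study had named it from these samples. It was at 7.73, 7.85 and 7.80 in LBP-treated DRGs and at 8.29, 8.18 and 8.12 in PBS-treated DRGs (log2 fold change -0.40, standard error 0.10, unadjusted limma p = 0.00203, exact permutation p = 0.1). Its groups did not overlap, and the values within each lay close together, unlike those of Col1a1. Plod2, which hydroxylates lysines of collagen for cross-links, was at 7.16, 7.22 and 7.32 in LBP-treated DRGs and at 7.41, 7.46 and 7.49 in PBS-treated DRGs (-0.22, limma p = 0.0424, exact permutation p = 0.1).

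Outside the cell, 10 of 13 processing and cross-linking genes had negative log2 fold changes with a median of -0.10. Loxl1, a lysyl oxidase-like enzyme of elastic fibres, had -0.54 (limma p = 0.0106, exact permutation p = 0.2) with overlapping groups, since LBP replicate 2 (6.73) lay above PBS replicate 3 (6.65). Of 14 genes of fibril-associated matrix, 9 were negative with a median of -0.04. Fibronectin (Fn1) was at 8.39, 9.77 and 9.18 in LBP-treated DRGs and at 9.46, 10.51 and 9.83 in PBS-treated DRGs (-0.82, standard error 0.33, limma p = 0.0328, exact permutation p = 0.2), again with LBP replicate 1 lowest and PBS replicate 2 highest. Fibromodulin (Fmod) had -0.59, with a limma p of 0.0207, and thrombospondin 2 (Thbs2) had -0.36, with a limma p of 0.0330. The exact permutation p was 0.2 for Fmod and 0.1 for Thbs2. LBP replicate 1 was the lowest array in 12 of these 14 genes, against 15% of all genes.

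Of 11 partners of collagen IV in basement membranes (laminins, nidogens, perlecan and others), 8 were negative with a median of -0.09, and 0 had a p under 0.05. LBP replicate 1 was the lowest array in 9 of the 11, against 15% of all genes. Of 11 genes of collagen breakdown, 7 were negative with a median of -0.12. The membrane-bound collagenase Mmp14 was at 8.66, 8.97 and 8.82 in LBP-treated DRGs and at 9.24, 9.32 and 9.10 in PBS-treated DRGs (log2 fold change -0.41, standard error 0.11, unadjusted limma p = 0.00475, exact permutation p = 0.1). The groups of Mmp14 did not overlap. Timp1, an inhibitor of matrix metalloproteinases whose mean level lay under the lower quartile of genes, had -0.39 (limma p = 0.00834, exact permutation p = 0.1). Of 10 collagen receptors, 9 were negative with a median of -0.06 and 0 with a p under 0.05. Of 13 genes of TGF-beta signalling and fibrosis, 10 were negative with a median of -0.08, and fibrillin 1 (Fbn1, -0.43, limma p = 0.0132, exact permutation p = 0.1) was the one past the unadjusted threshold. Each of these medians is set against -0.0011 over all genes, and against 4.72% of all genes at an unadjusted p under 0.05.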

How the data were processed

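Gene expression was read in L4/5 DRGs of 3 LBP-treated and 3 PBS-treated samples on Mouse Gene 2.0 ST arrays. In R, the authors used expresso with MAS5 to turn probes into gene values. Their methods give a rule for omitting outlier arrays by correlation, without saying whether any array was left out. The authors then quantile-normalized the values. They deposited log2 intensities, 1 per gene symbol and array. Genome build and software versions: not given in the sources used here. Quantile normalization makes the arrays alike in distribution, so that only changes relative to other genes are seen. The deposited table also holds the authors' fold changes and p-values, which were not used, and 3 columns that compare single arrays with the control, not used either.

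Of 24647 rows, 24 whose symbols had become dates were left out. limma 3.58.1 (lmFit, then eBayes; R 4.3.3) was run on every remaining gene, with treatment as the single factor (prior of 5.90 degrees of freedom), two-sided p-values and Benjamini-Hochberg adjustment over 24623 genes. The fit was tested on simulated data. Single chains were also given an exact permutation test over the 20 splits of 6 samples. Per-array values are differences from each gene's PBS mean, and lists are described by counts and medians. All 43 symbols are current in the GRCm38.p6 annotation, which lists each on the same chromosome as the table and gave the neighbours and the start regions. Chains described with every array were those with an unadjusted p under 0.05 and 18 fixed chains of main fibrils, basement membranes, nerve and vessels. The rest are given by range and counts with the extremes of each class, and from each pathway list at most the 6 genes of lowest p among those with a p under 0.05. Alternatives left out arrays or dim genes, blocked on the replicate number, centred arrays, and changed the prior variance or the array weights. The members, lists and alternatives were chosen with earlier results of these data known. With 3 arrays per group, their number limits the precision.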

Additional observations from a re-analysis of the deposited data

How the results depend on the processing

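The count of collagen chain genes at an adjusted p under 0.05 was 0 under all 12 alternatives, with 2 to 8 of the 43 chains at an unadjusted p under 0.05. Leaving out 1 array at a time gave 0 to 7 chains lower and 0 to 2 higher at that p, against 2 and 1. The count lower was 0 with LBP replicate 1 and PBS replicate 2 both left out (with 2 higher), 4 with dim genes left out, 1 with each array centred on its median and 6 with array weights. The fibrillar median of -0.13 lay between -0.13 and -0.037 without 1 array and was -0.0054 with both of those arrays left out. Without 1 array, the basement membrane median of -0.17 lay between -0.22 and -0.11 and that of the other chains (-0.04) between -0.09 and 0.02. Over the 20 chains described in full, 201 of their log2 fold changes under an alternative kept their sign and side of an unadjusted p of 0.05, 12 lost that p, 15 gained it and 12 changed sign. The changes of sign were in chains with a p above 0.05 throughout. Leaving out 1 array at a time, the log2 fold change ran between -0.11 and 0.013 for Col5a2, between -0.17 and 0.078 for Col4a3, between -0.19 and 0.041 for Col6a1 and between -0.052 and 0.031 for Col18a1. It was above 0 without LBP replicate 1 for all 4 of these chains, and without PBS replicate 2 for Col5a2 (0.0086), Col4a3 (0.034) and Col18a1. With both arrays left out, it was 0.064 for Col5a2, 0.17 for Col4a3, 0.11 for Col6a1, 0.046 for Col6a3 and 0.062 for Col18a1. The cause was not tested.

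Both groups use replicate numbers 1 to 3, but the labels do not say that a number marks a shared day or batch. Deviations from the group means correlated at 0.11, -0.03 and 0.08 between arrays of the same number, and 2 of 6 arrays correlated best with their own number. With 3 arrays per group, these values cannot decide whether a number marks a shared day or batch. With the replicate block in the fit, 4 chains had an unadjusted p under 0.05 (3 lower and 1 higher, against 2 and 1), and 0 passed the adjustment. Col8a1 was no longer past that p (0.0574), while Col1a1 (0.00554) and Col6a2 (0.0432) were. In a balanced design the block leaves the fold changes as they are. No other background correction was tried, since the fits start from normalized values.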

Other observations

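Proteins with collagen-like stretches that the symbol rule leaves out were also read. This list of 12 genes was written after the values of the chains were seen. Of the 12, 11 had negative log2 fold changes, with a median of -0.07. Over all genes, 50.3% were negative, with a median of -0.0011. The groups did not overlap in 3 of the 12, against 9.63% of all genes. Colec12, a scavenger receptor with a collagen-like stalk, was at 7.26, 7.54 and 7.75 in LBP-treated DRGs and at 7.77, 8.19 and 7.83 in PBS-treated DRGs. Its groups did not overlap, and its log2 fold change was -0.41 (standard error 0.15, unadjusted limma p = 0.0226, exact permutation p = 0.1). Colec12 was the 1 gene of the 12 with an unadjusted limma p under 0.05, against 4.72% of all genes. The gene now named Col26a1 stands in the table under its older symbol Emid2 and therefore is not among the 43 chains. It was at 6.70, 6.81 and 6.70 in LBP-treated DRGs and at 6.84, 6.92 and 6.88 in PBS-treated DRGs, with non-overlapping groups and a log2 fold change of -0.14 (95% interval -0.35 to 0.07). Colq, the collagen tail that anchors acetylcholinesterase, had a log2 fold change of -0.08 (-0.28 to 0.12), and its 3 LBP values (6.26 to 6.28) lay under its PBS values (6.31 to 6.38). Gldn, a collagen-domain protein of Schwann cells at the node of Ranvier, had one of -0.06 (-0.47 to 0.34).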
